A study of Gossypium hirsutum with 30 samples.

Results

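Transcripts of transcription factors tied to fibre cell fate were followed through ovule development as 4 probe sets of the 24029 tested on the Affymetrix cotton GeneChip. Chosen by name with earlier results of these arrays known, they have ranks among all probe sets that describe and do not test. They were the R2R3-MYB transcript GhMYB25/AtMYB16 (Ghi.10360.1.S1_a_at, RefSeq gene LOC107898728), a pair of probe sets whose closest Arabidopsis match is MYB106 (GhiAffx.30344.1.A1_at and Ghi.2459.1.S1_at, called MYB106a and MYB106b here), and the homeodomain transcript HOX3 (Ghi.503.1.S1_at, RefSeq gene LOC107904747), whose closest match is HDG11. The WT was Gossypium hirsutum cv. MCU5, sampled as ovules with their fibres attached, and the fl mutant was its spontaneous, near-isogenic line with neither fuzz nor lint, kept as a pure line. Both were grown in the field, no group received a treatment, and each was sampled on the day of flowering and then every 5 days to 20 dpa (days post anthesis) with 3 biological replicates, giving 30 arrays in 10 groups. RNA came from whole ovules, so that fewer fibre cells and less RNA per fibre cell cannot be told apart in any difference below.

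Cotton fibres are single cells that grow out of the ovule epidermis, beginning around the day of flowering and then elongating for weeks before the cellulose-rich secondary wall is laid down. MIXTA-like R2R3-MYB proteins, to which GhMYB25 and the Arabidopsis proteins MYB16 and MYB106 belong, shape outgrowing epidermal cells such as trichomes and conical petal cells and act on the cuticle. In Arabidopsis MYB106 (NOECK) also holds back trichome branching. HOX3 is a cotton protein of the HD-ZIP IV family, whose members mark epidermal cells in plants, and it promotes fibre elongation, while its Arabidopsis relative HDG11 acts in trichomes.

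The primer pair that the study designed for quantitative RT-PCR of GhMYB25 is given because it ties the transcript behind the first probe set to a stretch of sequence. Each primer is 24 bases long, written 5′ to 3′, and no part of it is set in capitals.
GhMYB25 forward primer: agtcacatggctcaatgggagagt
GhMYB25 reverse primer: tgaataacccgcagacgacacctt

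Values are on the log2 scale, and for every probe set the 6 arrays of a stage have a median of 0. A value therefore places an array above or below the other arrays of its stage, no level can be compared between stages or between transcripts, and where the genotypes do not overlap their innermost values mirror each other. Differences are the fl mutant minus WT, with SE, n = 3 arrays per genotype and Benjamini-Hochberg adjusted p from limma over all probe sets, and a transcript was called where this p did not exceed 0.01 and the fold reached 3. At 5 and 20 dpa the sign that the array labels give is opposite to the one in the tables of the study, for every transcript that those tables list with a direction. The study also reports quantitative RT-PCR of selected transcripts, GhMYB25 among them, at all of these stages, with a pattern similar to its own array results. Its RT-PCR values were not compared with the arrays here. Fibre cell transcripts (EXPA1, LTP1, RDL, KCS2, AGP2, FLA6 and GLP1, a list drawn from the changed transcripts of these arrays) bear on the labels. Of these, 6 of 7 were lower in fl mutant ovules at 10 dpa and 7 of 7 at 15 dpa. At 20 dpa 7 of 7 were instead higher on the arrays labelled fl mutant. At 5 dpa limma and the methods' t-test called 0 of 7 (6 of 7 at an unadjusted p under 0.05 in limma). No difference there reached the fold of 3, while EXPA1, GLP1, AGP2 and KCS2 passed the adjusted p threshold in limma. All but FLA6 (−0.17) lay higher at 5 dpa on the arrays labelled fl mutant, from 0.18 (LTP1) to 1.00 (GLP1), with a list median of 0.50. How many of all probe sets had an unadjusted p under 0.05 was not counted, so that counts at that level have no share to compare with. Groups still follow the labels, and those of 5 and 20 dpa are called the arrays labelled fl mutant and the arrays labelled WT. The median difference over all probe sets lay between −0.07 and 0.09 on the log2 scale at the 5 stages.

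The 4 transcripts did not share a single time course. GhMYB25 and MYB106a were lower in the fl mutant at both 0 and 10 dpa, HOX3 at both 10 and 15 dpa, and MYB106b was higher in the fl mutant at 15 dpa. Counted by stage, 2 of 4 were lower at 0 dpa, where 1.39% of all probe sets were lower and 0.154% higher by the same rule, and 3 of 4 at 10 dpa, where 6.55% were lower and 4.91% higher. At 15 dpa 1 of 4 was lower against 1.91% of all probe sets and 1 of 4 was higher against 1.52%. On the arrays labelled fl mutant 1 of 4 was higher at 20 dpa, against 2.47% of all probe sets, with 1.95% lower. At 5 dpa limma called 0 of 4, against 1.84% higher and 0.179% lower, with 2 of the 4 (MYB106a and MYB106b) at an unadjusted p under 0.05 and 0 of 4 called by the methods' t-test. The study's tables of changed transcripts come from these same arrays. They give a direction for 2 of the 4 at 0 dpa, 0 at 5, 3 at 10, 2 at 15 and 1 at 20 dpa. The shares over all probe sets therefore give a scale for these counts and no test of them.

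**Figure D1:**
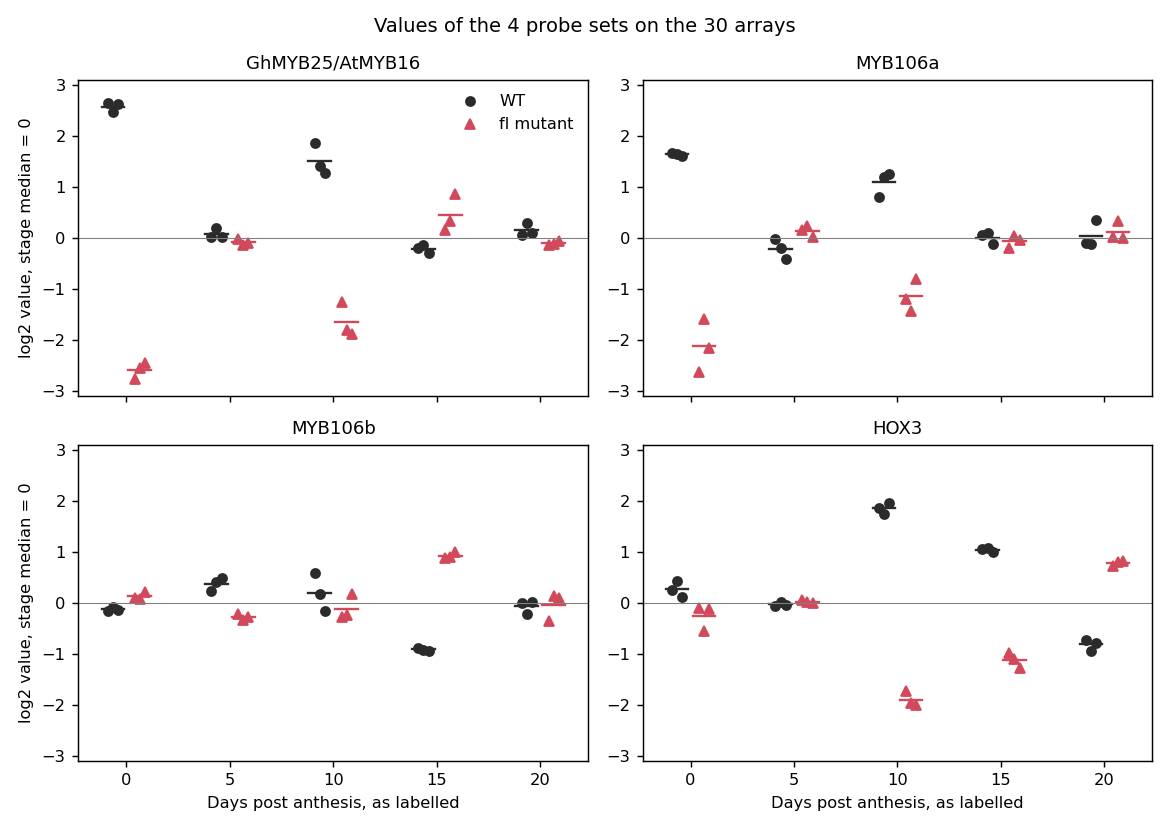
Log2 values of the 4 probe sets (vertical axis, stage median at 0) on the 3 WT arrays (black circles) and the 3 fl mutant arrays (red triangles) of each stage (horizontal axis, days post anthesis as labelled), with a bar at each group mean. The genotypes lie far apart for GhMYB25 and MYB106a at 0 and 10 dpa, for HOX3 at 10, 15 and 20 dpa, and for MYB106b at 15 dpa.

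GhMYB25, which promotes the initiation of fibres and trichomes in cotton, had the largest difference of the 4 transcripts. At 0 dpa its values were 2.64, 2.46 and 2.61 in the WT replicates 1 to 3 and −2.77, −2.56 and −2.46 in those of the fl mutant. All of the WT arrays lay above all of the mutant arrays, and the spread within a genotype was small beside the gap. The difference was −5.17 ± 0.09 on the log2 scale (SE, n = 3), a 36.1-fold lower signal in the fl mutant (adjusted p = 6.46e-08, limma), and it ranked 19 of 24029 from the lowest. At 10 dpa the WT arrays read 1.87, 1.40 and 1.27 and the mutant arrays −1.27, −1.81 and −1.88. The genotypes were again apart, with more spread among replicates than on the day of flowering, and the transcript was 8.96-fold lower in the fl mutant (log2 difference −3.16 ± 0.20, adjusted p = 2.33e-06, limma).

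At the other stages GhMYB25 was not called. At 15 dpa the WT arrays read −0.20, −0.15 and −0.29 and the mutant arrays 0.15, 0.32 and 0.86, so that the fl mutant lay above the WT without overlap, by 0.66 ± 0.18 (adjusted p = 0.0244, limma), with replicate 3 of the mutant the highest. The arrays labelled WT at 5 dpa read 0.02, 0.19 and 0.02 and those labelled fl mutant −0.02, −0.13 and −0.11, and at 20 dpa the corresponding values were 0.06, 0.28 and 0.09 against −0.15, −0.13 and −0.06. The genotypes did not overlap at either stage, yet the differences of −0.16 ± 0.07 (adjusted p = 0.12, limma) and −0.26 ± 0.08 (adjusted p = 0.0296, limma) were under a fold of 1.2. Absence of overlap alone was common: it held for 4, 3, 3, 3 and 2 of the 4 transcripts from 0 to 20 dpa, and for 56.9%, 49.2%, 64.3%, 54.8% and 58.3% of all probe sets.

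MYB106a was lower in the fl mutant at the same stages as GhMYB25. At 0 dpa its values were 1.66, 1.65 and 1.60 in the WT and −2.63, −1.60 and −2.16 in the fl mutant, where the replicates were spread more widely than in the WT. The transcript was 13.6-fold lower in the fl mutant (log2 difference −3.76 ± 0.23, adjusted p = 2.03e-05, limma). At 10 dpa the WT arrays read 0.80, 1.20 and 1.26 and the mutant arrays −1.21, −1.43 and −0.80, apart by −2.23 ± 0.18 or 4.70-fold (adjusted p = 9.73e-06, limma). At 15 dpa 0.06, 0.08 and −0.13 in the WT overlapped with −0.20, 0.04 and −0.04 in the fl mutant, and at 20 dpa −0.11, −0.12 and 0.35 on the arrays labelled WT overlapped with 0.01, 0.33 and −0.01 on those labelled fl mutant. Neither difference exceeded the spread between replicates, at −0.07 ± 0.09 (95% confidence interval −0.28 to 0.14) and 0.07 ± 0.15 (−0.27 to 0.41). At 5 dpa the arrays labelled WT read −0.02, −0.21 and −0.41 and those labelled fl mutant 0.16, 0.24 and 0.02, a difference of 0.35 ± 0.11 (adjusted p = 0.0414, limma) that missed both thresholds.

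MYB106b, matched to the same Arabidopsis gene, behaved otherwise. Its largest difference was at 15 dpa, with −0.88, −0.92 and −0.95 in the WT and 0.88, 0.90 and 0.99 in the fl mutant. Replicates of a genotype lay close together, and the transcript was 3.58-fold higher in the fl mutant (log2 difference 1.84 ± 0.05, adjusted p = 7.71e-07, limma). On the day of flowering, when MYB106a was lower, MYB106b read −0.15, −0.08 and −0.13 in the WT and 0.09, 0.08 and 0.21 in the fl mutant. That is 0.25 ± 0.06 in the other direction, and it missed both thresholds (adjusted p = 0.0118, limma). At 5 dpa the arrays labelled WT read 0.23, 0.40 and 0.49 and those labelled fl mutant −0.23, −0.34 and −0.27, a 1.57-fold difference (−0.65 ± 0.08) that passed the p threshold (adjusted p = 0.000675, limma) and not the fold. At 10 dpa 0.58, 0.18 and −0.17 in the WT overlapped with −0.27, −0.24 and 0.17 in the fl mutant, and the difference of −0.31 had a 95% confidence interval of −0.76 to 0.14. At 20 dpa −0.01, −0.22 and 0.01 on the arrays labelled WT overlapped with −0.36, 0.13 and 0.10 on those labelled fl mutant, with an interval of −0.29 to 0.35.

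HOX3 was called from 10 dpa onwards. At 0 dpa the WT arrays read 0.25, 0.43 and 0.11 and the mutant arrays −0.11, −0.56 and −0.12, a 1.44-fold difference that was not called (−0.53 ± 0.14, adjusted p = 0.0173, limma). At 5 dpa −0.07, 0.02 and −0.05 on the arrays labelled WT overlapped with 0.06, 0.01 and −0.01 on those labelled fl mutant. The earliest stages thus held no called difference for HOX3, with 95% confidence intervals of −0.85 to −0.20 and −0.08 to 0.19. The interval at 0 dpa lay below 0, and in the joint fit of the 30 arrays the adjusted p was 0.000141 (limma), so that only the fold was missed there.

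At 10 dpa the values of HOX3 were 1.85, 1.74 and 1.97 in the WT and −1.74, −1.97 and −2.00 in the fl mutant, where the transcript was 13.5-fold lower (log2 difference −3.76 ± 0.10, adjusted p = 2.25e-08, limma). At 15 dpa they were 1.05, 1.07 and 0.99 against −0.99, −1.11 and −1.28, a 4.48-fold lower signal (−2.16 ± 0.08, adjusted p = 2.62e-06, limma). The replicates of HOX3 lay close together at both stages, and its difference ranked 279 and 293 of 24029 from the lowest. At 20 dpa the arrays labelled WT read −0.72, −0.94 and −0.79 and those labelled fl mutant 0.72, 0.79 and 0.82. There HOX3 was 3.01-fold higher on the arrays labelled fl mutant (1.59 ± 0.08, adjusted p = 9.88e-07, limma), just past the fold threshold, and the call was lost without replicate 2 of the arrays labelled WT (1.53), without replicate 2 of those labelled fl mutant (1.58) or without their replicate 3 (1.57). With the labels of 20 dpa exchanged the same difference is −1.59.

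**Figure D2:**
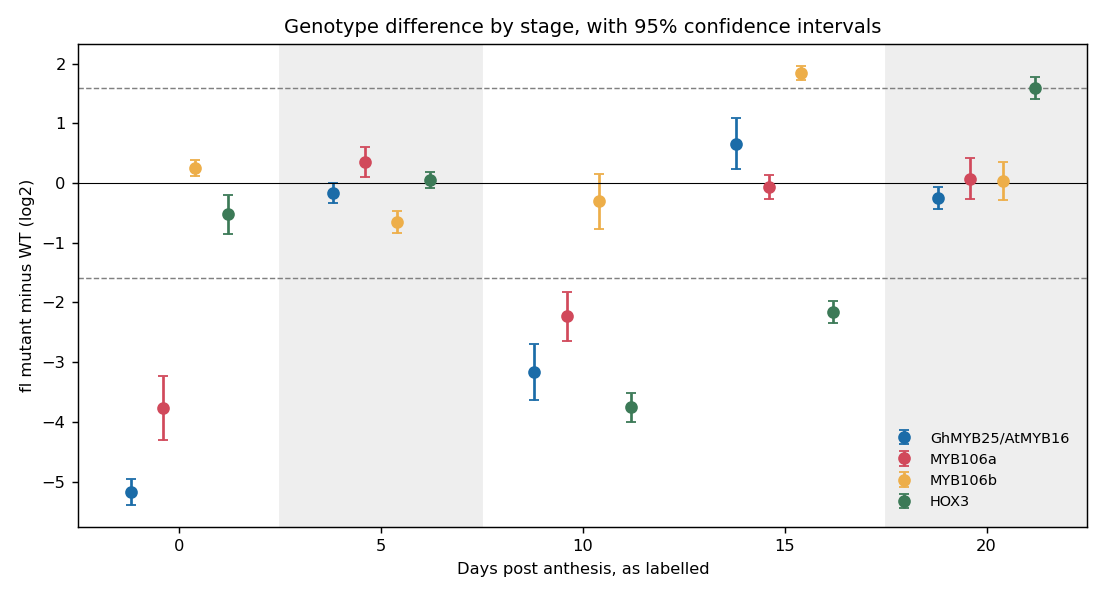
Difference between the fl mutant and WT (vertical axis, log2) for each of the 4 probe sets at each stage (horizontal axis, days post anthesis as labelled), with the 95% confidence interval of the limma fit and dashed lines at a fold of 3; stages whose labels are in doubt are shaded grey. GhMYB25 falls furthest below 0 at 0 dpa (−5.17), HOX3 at 10 dpa (−3.76), and MYB106b is furthest above 0 at 15 dpa (1.84).

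Cell type lists moved with some of these differences. The summed fibre cell list, as the mean of its 7 transcripts on an array, ran from 2.19 to 2.40 on the WT arrays and from −2.50 to −2.30 on the mutant arrays at 10 dpa, and from 2.21 to 2.23 against −2.34 to −2.28 at 15 dpa. At 20 dpa it ran from −1.84 to −1.68 on the arrays labelled WT and from 1.68 to 1.78 on those labelled fl mutant. The list and HOX3 thus had the same sign at all 3 stages at which HOX3 was called. Both were taken from transcripts that the study reports as changed on these arrays, so that the shared sign is no independent result. At 0 dpa, where GhMYB25 and MYB106a were lowest, limma and the methods' t-test called 0 of 7 fibre cell transcripts (5 of 7 at an unadjusted p under 0.05 in limma). No difference reached the fold of 3 that both tests share, so that neither could call any. EXPA1, GLP1, RDL, KCS2 and LTP1 were lower and passed the adjusted p threshold (2.67e-06 to 0.000623, limma), missing the fold alone. The list ran from 0.36 to 0.44 against −0.42 to −0.35, and its median difference was −0.86. At 20 dpa the single embryo storage transcript, beta-globulin, was also 9.57 log2 units higher on the arrays labelled fl mutant (not called by limma or the methods' t-test at the other stages, with an unadjusted p under 0.05 at 5 dpa alone), and of 7 flavonoid transcripts of the seed coat 6 were lower and 1 was higher. The seed coat list was otherwise called lower for 2 of 7 at 0 dpa, 1 of 7 at 10 dpa and 3 of 7 at 15 dpa, and higher for 2 of 7 at 5 dpa. Over all probe sets 1.39%, 6.55% and 1.91% were lower at 0, 10 and 15 dpa, and 1.84% higher at 5 dpa. All of these seed coat calls were of chalcone synthase (CHS) probe sets. The other transcripts of the list, LDOX, F3H and ANR, were not called at these stages, with differences from −0.53 to 0.27. The part of these lists in the differences of the 4 transcripts was not tested.

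Whether the genotype difference of a transcript changed from stage to stage was tested as an interaction in 1 limma fit of all 30 arrays, at the same thresholds. From 0 to 10 dpa the difference of GhMYB25 became smaller in size, from −5.17 to −3.16, a change of 2.01 ± 0.22 (adjusted p = 1.38e-08, limma), where 6.76% of all probe sets changed upwards by this rule. MYB106a changed in the same direction, from −3.76 to −2.23, by 1.53 ± 0.27 (adjusted p = 1.65e-05, limma), which fell short of the factor of 3. HOX3 changed the other way, from −0.53 to −3.76, by −3.23 ± 0.14 (adjusted p = 2.84e-16, limma), where 6.5% of all probe sets changed downwards. The change of MYB106b, −0.56 ± 0.20 (adjusted p = 0.0154, limma), was not called.

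From 10 to 15 dpa all 4 transcripts changed upwards, where 7.15% of all probe sets did. For GhMYB25 the change was 3.82 ± 0.22, and its difference was no longer below 0. For MYB106a it was 2.16 ± 0.27, from a 4.70-fold lower signal to overlapping groups. MYB106b changed by 2.15 ± 0.20, from overlapping groups to a higher signal in the fl mutant, and HOX3 by 1.59 ± 0.14, with the transcript still lower in the fl mutant at 15 dpa. Adjusted p-values of these 4 changes lay between 6e-14 and 9.1e-08 (limma). The call of HOX3 stood at the threshold and was lost without WT replicate 3 or fl mutant replicate 1 at 15 dpa, or without WT replicate 3 or fl mutant replicates 2 or 3 at 10 dpa (1.53 to 1.57).

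Between 0 and 15 dpa the difference of GhMYB25 changed by 5.83 ± 0.22 and that of MYB106a by 3.70 ± 0.27, while MYB106b changed by 1.59 ± 0.20, all upwards, where 3.12% of all probe sets changed upwards. HOX3 changed downwards by −1.64 ± 0.14, where 2.16% did. These adjusted p-values lay between 2.37e-17 and 2.1e-07 (limma). The calls of MYB106b and HOX3 stood near the threshold: that of MYB106b was lost without replicate 3 of either genotype at 15 dpa, or without WT replicate 2 or fl mutant replicates 1 or 2 at 0 dpa (1.55 to 1.57), and that of HOX3 without fl mutant replicate 3 at 15 dpa, or without WT replicate 3 or fl mutant replicates 1 or 3 at 0 dpa (−1.57 to −1.56), or with arrays centred on their median (−1.58). Between 5 and 20 dpa, both with labels in doubt, limma called 0 of 4 changes (2 of 4 at an unadjusted p under 0.05), against 3.14% of all probe sets upwards and 4.22% downwards. HOX3 came closest at 1.54 ± 0.14 (adjusted p = 1.17e-09, limma), followed by MYB106b at 0.68 ± 0.20 (adjusted p = 0.00514, limma).

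**Figure D3:**
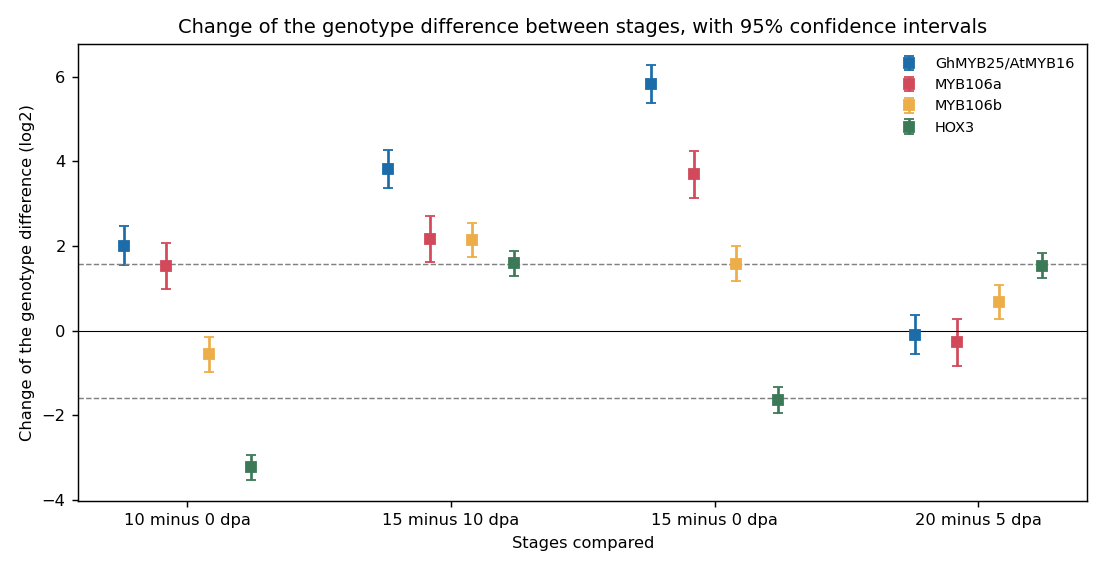
Change of the genotype difference between pairs of stages (vertical axis, log2, later minus earlier stage) for the 4 probe sets (colours), with 95% confidence intervals and dashed lines at a factor of 3. HOX3 lies at −3.23 from 0 to 10 dpa while GhMYB25 lies at 2.01, and all 4 probe sets lie above 0 from 10 to 15 dpa.

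The transcripts were also compared with each other within a stage, by the difference between a pair of them on each array, in 6 pairs at each of the 5 stages. With 3 arrays against 3 the exact two-sided permutation test cannot go below 0.10, so that none of these 30 comparisons can pass 0.05, and p adjusted over the 30 was 0.115 at the lowest. In 26 of the 30 the WT and mutant arrays were apart, in which case p took its smallest value of 0.1. When each of the 4 transcripts was set against every other probe set of the array in the same way, the arrays were apart in 73.2% of the differences, so that being apart was common. The MYB106 pair was apart at 0 dpa, where the log2 genotype difference of MYB106a minus that of MYB106b was −4.02, at 10 dpa (−1.92) and at 15 dpa (−1.91). GhMYB25 minus MYB106a was −1.41 at 0 dpa and −0.93 at 10 dpa. GhMYB25 minus HOX3 was −4.65 at 0 dpa, 0.59 at 10 dpa, where both transcripts were lower in the fl mutant, and 2.82 at 15 dpa. The pairs whose arrays were not apart were MYB106a with HOX3 at 5 dpa and the 3 pairs among the MYB transcripts at 20 dpa.

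The list of 8 other regulators of epidermal cell fate comes from the study's own tables of changed transcripts and is not independent evidence of direction. Shares of all probe sets called at each stage are those printed with the counts of the 4 transcripts, as a scale and no test. At 0 dpa 0 of 8 were called by limma or by the methods' t-test, and their median difference was 0.29 against 0.09 over all probe sets. An unadjusted p of 0.05 was passed by 5 of 8 in limma. ETC1 (0.57), GhHOX2 (0.42) and TTG1 (0.34) also passed the adjusted p threshold and missed the fold alone. Small differences were common at this stage, where the genotypes did not overlap for 56.9% of all probe sets. At 10 dpa 2 of 8 were higher in the fl mutant, namely GL3, the bHLH partner of MYB proteins in trichome initiation in Arabidopsis (1.74), and SHN3, an AP2 protein of the SHINE clade that promotes cuticle formation (2.00). Another 2 of 8 were lower, namely WER, a MYB of the Arabidopsis root epidermis (−1.76), and ETC1, a single-repeat MYB that inhibits trichome formation in Arabidopsis (−1.59). The other 4 (MYB5, TTG1, GhHOX2 and HDG5) were not called at this stage, with differences from −1.19 to 1.22.

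At 15 dpa 3 of these 8 regulators were higher in the fl mutant, as MYB106b was. They were SHN3 (1.86) and the HD-ZIP IV transcripts GhHOX2 (1.64) and HDG5 (1.66), relatives of HOX3 that both match Arabidopsis HDG5 and may share signal. MYB5, a MYB of trichomes and seed coat in Arabidopsis, was lower (−1.94), as HOX3 was. WER (−1.17), ETC1 (1.04), TTG1 (0.90) and GL3 (0.33) were not called. On the arrays labelled fl mutant, 1 of 8 was lower at 20 dpa, the WD40 protein TTG1 that joins MYB and bHLH proteins (−2.89). MYB5 lay at 1.31, SHN3 at −1.18 and GL3 at 1.12 at this stage. At 5 dpa 0 of 8 were called by limma or by the methods' t-test (5 of 8 at an unadjusted p under 0.05 in limma). Differences on these arrays ran from −0.95 to 0.18, and ETC1, TTG1, GhHOX2 and HDG5 passed the adjusted p threshold in limma and missed the fold alone.

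**Figure D4:**
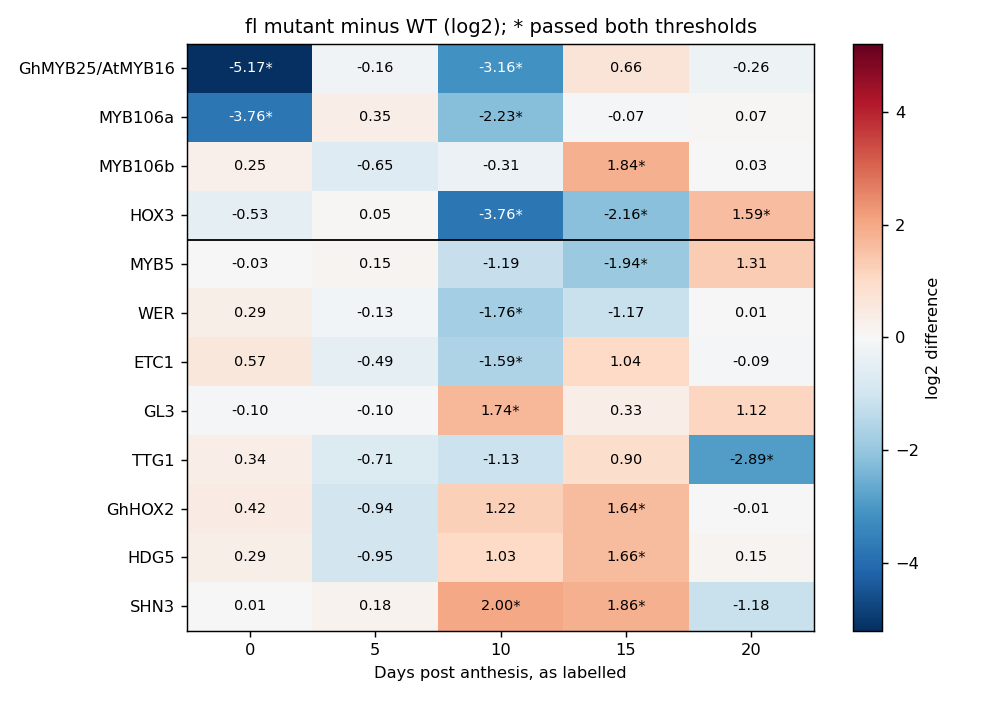
Log2 difference between the fl mutant and WT (number and colour, red for higher and blue for lower in the fl mutant) of the 4 probe sets above the line and of 8 other epidermal regulators below it, at each stage (columns, days post anthesis as labelled), with an asterisk where both thresholds were passed. At 0 dpa only GhMYB25 and MYB106a among these 12 carry an asterisk.

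Other members of the MYB and homeobox families came from the same tables of the study. The list of 27 MYB probe sets holds MYB5 and WER again, and that of 25 homeobox probe sets GhHOX2 and HDG5. Of the 27 MYB probe sets 5 were lower and 0 higher at 0 dpa, the lower ones led by 2 probe sets of MYB73 (−2.23 and −2.13). At 10 dpa 10 were lower and 9 higher, led by MYB60 (−6.38) and MYB105 (−3.50) on the lower side and by MYB108 (3.72) and MYB26 (3.60), a regulator of secondary wall thickening in Arabidopsis anthers, on the higher side. At 15 dpa 3 were lower, led by MYB60 (−3.56) and MYB85 (−2.78), and 2 were higher, both matched to MYB73 (4.14 and 1.71). Without MYB5 and WER 9 of 25 were lower at 10 dpa and 2 of 25 at 15 dpa, and the other counts of the list were as given. The same 2 MYB73 probe sets had been lower at 0 dpa (−2.06 and −2.13), while GhMYB25, lowest at 0 dpa, was not called at 15 dpa. At 5 dpa 1 of 27 was higher, and at 20 dpa 5 were lower and 1 was higher on the arrays labelled fl mutant. The list's medians were −0.17, 0.18, 0.12, 0.32 and −0.43 from 0 to 20 dpa.

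At 0 dpa the single called transcript among the 25 homeobox probe sets was HB40 (−2.37). At 10 dpa, where HOX3 was lower, 14 of 25 were higher in the fl mutant, against 4.91% of all probe sets. They were led by BLH1 (4.01) and KNAT7 (3.99), which acts on secondary walls in Arabidopsis. Another 4 were lower, against 6.55% of all probe sets, led by the HD-ZIP II transcripts HAT3 (−5.34) and ATHB2 (−4.35). The median of the list at this stage was 1.77 against 0.04 over all probe sets. At 15 dpa 1 was lower, KNAT6 (−1.59), and 2 were higher, the GhHOX2 and HDG5 probe sets already counted among the 8 regulators. On the arrays labelled fl mutant 5 were higher at 5 dpa, and 2 were higher and 3 lower at 20 dpa.

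A list of 16 probe sets of cuticle and wax formation, the process that MYB16 and MYB106 promote in Arabidopsis, came from the same tables. The shares of all probe sets printed with the MYB list serve here too as a scale and no test. At 0 dpa 6 of 16 were lower in the fl mutant and 0 higher, with a CER1 (−2.69) and a CER3 (−2.61) probe set, whose proteins act in alkane formation, the furthest below 0. At 10 dpa 12 were lower, with the acyltransferase ACY/DCR (−7.85) and the same CER3 probe set (−4.54) lowest, and 2 were higher, both of CER1 (5.56 and 1.67). At 15 dpa 9 were lower, with KCS6 (−5.15), which elongates the fatty acids of wax, and again CER3 (−5.06) lowest, and 1 was higher, the CER1 probe set that was highest at 10 dpa (3.39). The list's medians were −1.18, −3.06 and −2.29 at 0, 10 and 15 dpa, and at 15 dpa GhMYB25 was above 0 (0.66) and MYB106a close to it (−0.07). CER1, CER3, CER5 and KCS6 each stand in the list with several probe sets. Whether the transcripts of this list depend on GhMYB25 or MYB106 was not tested. On the arrays labelled fl mutant 1 of 16 was higher at 5 dpa, and 5 were higher and 2 lower at 20 dpa.

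For each of the 4 transcripts the listed probe sets with the most similar values were found by the root mean square (RMS) difference over the 30 arrays, a description that these values fix and that carries no test. MYB106a was the closest of all probe sets to GhMYB25, at an RMS difference of 0.53 on the log2 scale against a median of 1.42 over all probe sets. HOX3 was at 1.31 and MYB106b at 1.42 from GhMYB25, close to the median probe set in the case of MYB106b. For MYB106b the other MYB106 probe set was among the most distant, since 97.3% of all probe sets were closer to it. GhMYB25 and HOX3 were further still from MYB106b, with 98.7% and 98.1% closer. Seen from MYB106a, 78.6% of all probe sets were closer than MYB106b. An RMS difference depends on the size of the genotype differences as well as on their course.

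After MYB106a, the 5 probe sets closest to GhMYB25 among those listed in the study's tables or the platform table were 3 transcribed loci with no gene name (RMS differences 0.61, 0.67 and 0.69), a locus described there as weakly similar to an AP2 factor (0.62) and BRH1 (0.69), a brassinosteroid-responsive RING-H2 protein. All 5 were lower than 0 at 0 dpa (differences −5.24 to −2.88) and at 10 dpa (−3.83 to −0.82) and above 0 at 15 dpa (0.26 to 3.22). MYB106a was closest to the first of these loci (0.41), then to TINY (0.46), an AP2 protein, to a kinase matched to WRKY19 (0.48) and to 2 probe sets of MYB73 (both 0.50), an R2R3-MYB of Arabidopsis stress responses.

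MYB106b had other neighbours, led by RSM2/RL1 (0.20), a small RADIALIS-like MYB protein, and followed by a pectin lyase-like protein (0.22), LOC107958468 (0.23), the aspartyl protease CDR1 (0.23) and TBL17 (0.26). These 5 were 1.44 to 1.76 log2 units above 0 at 15 dpa and no further than 0.94 from 0 at the other stages. HOX3 was closest to the pectin methylesterase PME44 (0.24), a lipid transfer protein matched to AT2G44290 (0.25), LOC107908860 (0.26), named H6L in RefSeq, the lipid transfer protein LTP4 (0.28) and MS2/FAR2 (0.30), a fatty acyl reductase. The differences of these 5 ran from −4.25 to −3.39 at 10 dpa, from −3.16 to −1.74 at 15 dpa and from 1.07 to 2.22 at 20 dpa.

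**Figure D5:**
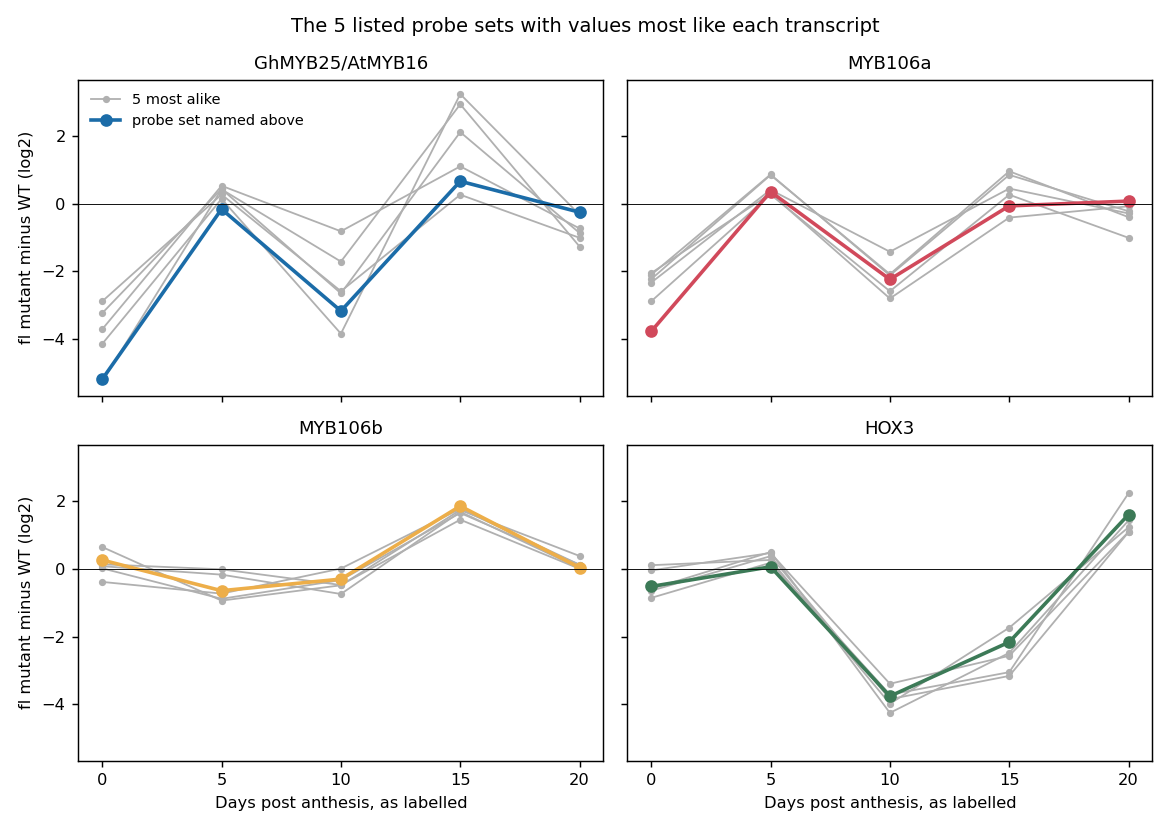
Log2 difference between the fl mutant and WT (vertical axis) across the stages (horizontal axis, days post anthesis as labelled) for each of the 4 probe sets (coloured) and the 5 listed probe sets with the smallest RMS difference from it (grey), which follow it by choice; lines join stages for reading only. The neighbours of GhMYB25 run from −5.24 to −2.88 at 0 dpa and those of HOX3 from −4.25 to −3.39 at 10 dpa.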

How the data were processed

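Ovules of the fl mutant and of WT MCU5 were hybridised to Affymetrix cotton arrays. The log2 values, as deposited, were made by the authors by RMA in GeneSpring GX, and within a stage every probe set has been moved so that its 6 arrays have a median of 0. Array number limits the precision. Of 24132 probe sets 103 controls were left out. Genotypes were compared stage by stage on 6 arrays in limma 3.58.1 (R 4.3.3), with Benjamini-Hochberg adjustment over 24029 probe sets, and fitted changes between stages on all 30 arrays. On simulated arrays of this design limma recovered 140 of 145 to 143 of 143 probe sets shifted at least 4-fold, with 0 calls among 23829 left unchanged. The simulated noise was independent and normal at each probe set's own spread, so that this checks the code and does not measure false calls on the real arrays. The members and lists were chosen with earlier results of these data known. Besides the members, the text names all 8 epidermal regulators, the 5 probe sets most similar to each member among those listed in the tables named next, and in the MYB, homeobox and cuticle lists the 2 largest called differences in each direction at 0, 10 and 15 dpa; fibre cell, seed coat flavonoid and embryo storage lists served as cell type markers. Names come from the study's tables (2367 probe sets, 2097 with an Arabidopsis match) and from GEO's platform table (743 probe sets, 697 with 1 gene symbol and 46 with several), which matched 2 of the 4 members, updated through RefSeq's Gossypium_hirsutum_v2.1. Fold changes and directions of the authors' own comparisons were not used, apart from a count of signs to check the labels. Replicates were labelled biological, with no statement of which plants they came from. Alternatives were a joint fit of the 30 arrays, the methods' t-test, a replicate block, other array centring, other thresholds, each replicate left out, and exchanged labels at 5 and 20 dpa.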

Additional observations from a re-analysis of the deposited data

Results flagged for a closer look

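Of 16 changes of the genotype difference between stages 10 passed the interaction test, that is, the genotype difference of the transcript differed between 2 stages. A change from 0 to 15 dpa is the sum of the changes from 0 to 10 and from 10 to 15 dpa, so that the 10 are not separate results. From 0 to 10 dpa these were GhMYB25 (2.01 on the log2 scale) and, in the opposite direction, HOX3 (−3.23), against 6.76% of all probe sets upwards and 6.5% downwards. From 10 to 15 dpa they were GhMYB25 (3.82), MYB106a (2.16), MYB106b (2.15) and HOX3 (1.59), against 7.15% of all probe sets upwards. From 0 to 15 dpa they were GhMYB25 (5.83), MYB106a (3.70), MYB106b (1.59) and, in the opposite direction, HOX3 (−1.64), against 3.12% upwards and 2.16% downwards. The calls of HOX3 from 10 to 15 dpa and of MYB106b and HOX3 from 0 to 15 dpa were lost with some single arrays left out. Each stage has WT and mutant arrays of its own, and each carries its own shift to a stage median, which cancels in a genotype difference. Groups of 3 arrays are too small for an outlier test.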

How the results depend on the processing

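The 36 differences and changes of the 4 transcripts were recomputed under 544 combinations of transcript and alternative, of which 501 kept the direction and the side of the thresholds. The thresholds decided most of the others. For HOX3 at 20 dpa the difference was 1.53 to 1.64 with a replicate left out. For the change from 0 to 10 dpa MYB106a gave 1.28 to 1.80 and was called at a factor of 2 (1.53) and without WT replicate 2 or 3 or fl mutant replicate 2 at 10 dpa, or fl mutant replicate 2 at 0 dpa. HOX3 gave 1.53 to 1.68 from 10 to 15 dpa, −1.78 to −1.56 from 0 to 15 dpa (−1.58 with arrays centred on their median), and 1.48 to 1.59 from 5 to 20 dpa, where it was called at a factor of 2 (1.54) and without replicate 1 of the arrays labelled WT at 20 dpa. MYB106b gave 1.55 to 1.63 from 0 to 15 dpa. The uncalled differences at 20 dpa crossed 0 with a replicate left out, from −0.038 to 0.23 for MYB106a and from −0.057 to 0.19 for MYB106b. Exchanged labels turn the sign at 5 dpa to 0.16 for GhMYB25, −0.35 for MYB106a, 0.65 for MYB106b and −0.052 for HOX3, at 20 dpa to 0.26, −0.072, −0.030 and −1.59, and from 5 to 20 dpa to 0.092, 0.28, −0.68 and −1.54. A replicate block changed no call of the 4 transcripts (HOX3 at 10 dpa −3.76, adjusted p = 1.59e-06 with limma), and its counts over all probe sets were those without it. Same-numbered replicates correlated at −0.158 to 0.156 over all probe sets. Replicates with different numbers were not compared, so that a pairing of arrays by number was not settled. With a fold of 2 in place of 3 the counts over all probe sets rose from 371 to 899, 484 to 1080, 2754 to 5472, 824 to 1736 and 1062 to 2607 from 0 to 20 dpa. For the 8 epidermal regulators it gave 4 higher and 4 lower at 10 dpa in place of 2 and 2, 4 higher and 2 lower at 15 dpa in place of 3 and 1, and 2 higher and 2 lower at 20 dpa in place of 0 and 1. It gave 3 fibre cell transcripts lower at 0 dpa and 1 higher at 5 dpa in place of 0. Differences under 3-fold were not called whatever their adjusted p (MYB106b at 5 dpa, −0.65, adjusted p = 0.000675 with limma), and the labels of 5 and 20 dpa were not settled.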
